A study of Rattus norvegicus with 23 samples.

Results

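C/EBP transcription factors were examined in 2 rat kidney cell lines by the symbols Cebpa, Cebpb, Cebpd, Cebpe, Cebpg and Cebpz in the deposited count table. Of these 6 genes, 4 matched a row (Cebpb, ENSRNOG00000057347, on chromosome 3; Cebpd, ENSRNOG00000050869, on chromosome 11; Cebpe, ENSRNOG00000014282, on chromosome 15; and Cebpz, ENSRNOG00000005087, on chromosome 6). All 4 were among the 14777 genes tested, out of 30452 genes in the table. Cebpa and Cebpg were not analysed here.

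NRK-52E cells (labelled NRKE, epithelial) and NRK-49F cells (labelled NRKF, fibroblast) are established rat kidney lines, and each line stands for its cell type through a single line only. Cells of all groups were first kept without foetal calf serum (FCS) for 24 h and were then held for 48 h either at pH 7.4 or in medium brought to pH 6.0 with HCl. The comparison asks which genes respond to an acidic extracellular milieu in non-tumour cells. There were 6 samples of NRKE cells at each pH, 6 of NRKF cells at pH 7.4 and 5 of NRKF cells at pH 6.0, 23 in all, and each line was split over 2 sample groups (1 and 3 for NRKE, 4 and 6 for NRKF) that each held both pH values. The study calls its samples biological, but the labels do not state whether they came from separate cultures. The p-values thus measure the spread between these samples, which may be technical.

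C/EBP proteins are basic leucine zipper (bZIP) factors, which bind DNA only as dimers with each other or with relatives such as ATF4 and CHOP (gene Ddit3). C/EBPβ and C/EBPδ are induced by cytokines of the interleukin-6 family and by glucocorticoids, and they drive acute-phase genes and the early steps of fat cell differentiation, whereas C/EBPε serves the late maturation of granulocytes. Cebpz carries the family name because its product was found as a CCAAT-box binding factor, but it has no leucine zipper and is related to the Noc proteins of ribosome assembly. In epithelial cells and fibroblasts alike, C/EBPβ takes part in inflammatory and stress responses.

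Total counts ranged from 16412564 to 34250535 per sample, and levels are given as FPM, the fragments counted for a gene relative to the TMM-scaled size of its library. The labels of cell type were checked against marker genes. Of 10 fibroblast markers 8 had a higher mean in NRKF than in NRKE cells at pH 7.4, among them Pdgfra (306 against 1.83 FPM), Lum (99.2 against 0.546 FPM) and, less far apart, Pdgfrb (84.6 against 41.4 FPM). Col3a1 went the other way (1212 FPM in NRKF against 6149 FPM in NRKE cells), and Thy1 was at 0 in both. Cdh1 and Epcam, which define epithelia, were at most 0.349 FPM in every sample of either line, and the keratin Krt8 was higher in NRKF (839 FPM) than in NRKE cells (499 FPM) at pH 7.4. The epithelial character of NRKE cells was therefore not visible in those defining markers, apart from Krt7 at 21.8 against 1.42 FPM. In 1 NRKE sample at pH 7.4, A035, 8.89% of 13015 genes lay apart above and 3.18% apart below the other 5 samples by Dixon's 95% criterion, the largest shares of all 23 samples, and results that rest on it are given with and without it.

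The promoters of Cebpb and Cebpz are shown because their acid response differed between the lines. They are the 250 bases before the gene start in RefSeq (build GRCr8), with capitals marking matches to the motifs searched, and lie at chr3:176816755-176817004 (plus strand) and chr6:21871821-21872070 (plus strand).
Cebpb: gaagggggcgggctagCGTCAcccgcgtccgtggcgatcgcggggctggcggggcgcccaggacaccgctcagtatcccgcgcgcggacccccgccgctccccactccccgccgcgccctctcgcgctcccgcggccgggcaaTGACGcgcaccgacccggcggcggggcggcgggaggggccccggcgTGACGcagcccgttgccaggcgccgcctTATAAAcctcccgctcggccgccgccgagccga
Cebpz: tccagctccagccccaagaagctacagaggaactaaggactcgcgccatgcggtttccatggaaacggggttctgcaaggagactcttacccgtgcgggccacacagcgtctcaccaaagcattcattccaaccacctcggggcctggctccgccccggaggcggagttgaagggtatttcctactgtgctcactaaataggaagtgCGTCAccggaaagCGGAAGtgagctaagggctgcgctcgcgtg

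The motifs were searched on both strands and did not overlap where they matched. They included TGATGNAA, a core of C/EBP-ATF composite elements, and TTGCGCAA, the C/EBP palindrome. TGACG is the half-site of the cAMP response element and CCAAT is the box that named the family. CGGAAG is the core bound by ETS factors, and TATAAA is the TATA box. The Cebpb window held 3 TGACG matches, beginning 234, 107 and 61 bases before the start, and TATAAA at 33 bases. The Cebpz window held TGACG at 43 and CGGAAG at 30 bases before the start. TGACG was present in 18.2% of all 33469 windows of this length, TATAAA in 12.9% and CGGAAG in 13.9%, while TGATGNAA, TTGCGCAA and CCAAT, found in 3.4%, 0.14% and 34% of windows, had no match in either. The window of Cebpe held none of the motifs.

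In NRKE cells 3 of the 4 genes passed the threshold (edgeR's quasi-likelihood test, Benjamini-Hochberg adjusted p under 0.05 over all genes tested), with Cebpz higher and Cebpd and Cebpe lower, where 61.2% of all genes tested passed (24.7% higher and 36.6% lower). The call of Cebpd rested on 12 counts in 1 sample, A021, and the gene was tested there only through its level in NRKF cells. With NRKE samples fitted alone, Cebpd and Cebpe were too scarce to be tested and 1 gene, Cebpz, passed. In NRKF cells 2 passed, with Cebpb higher and Cebpd lower, where 28.9% of all genes passed (14.5% higher and 14.4% lower), and the call of Cebpb was lost without A042. The difference between the changes in both lines passed for Cebpb and Cebpz, 2 of 4, against 41.4% of all genes (16.8% with a higher and 24.7% with a lower value in NRKE). In bulk RNA, fewer cells that express a gene and less of its RNA per cell cannot be told apart.

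**Figure D1:**
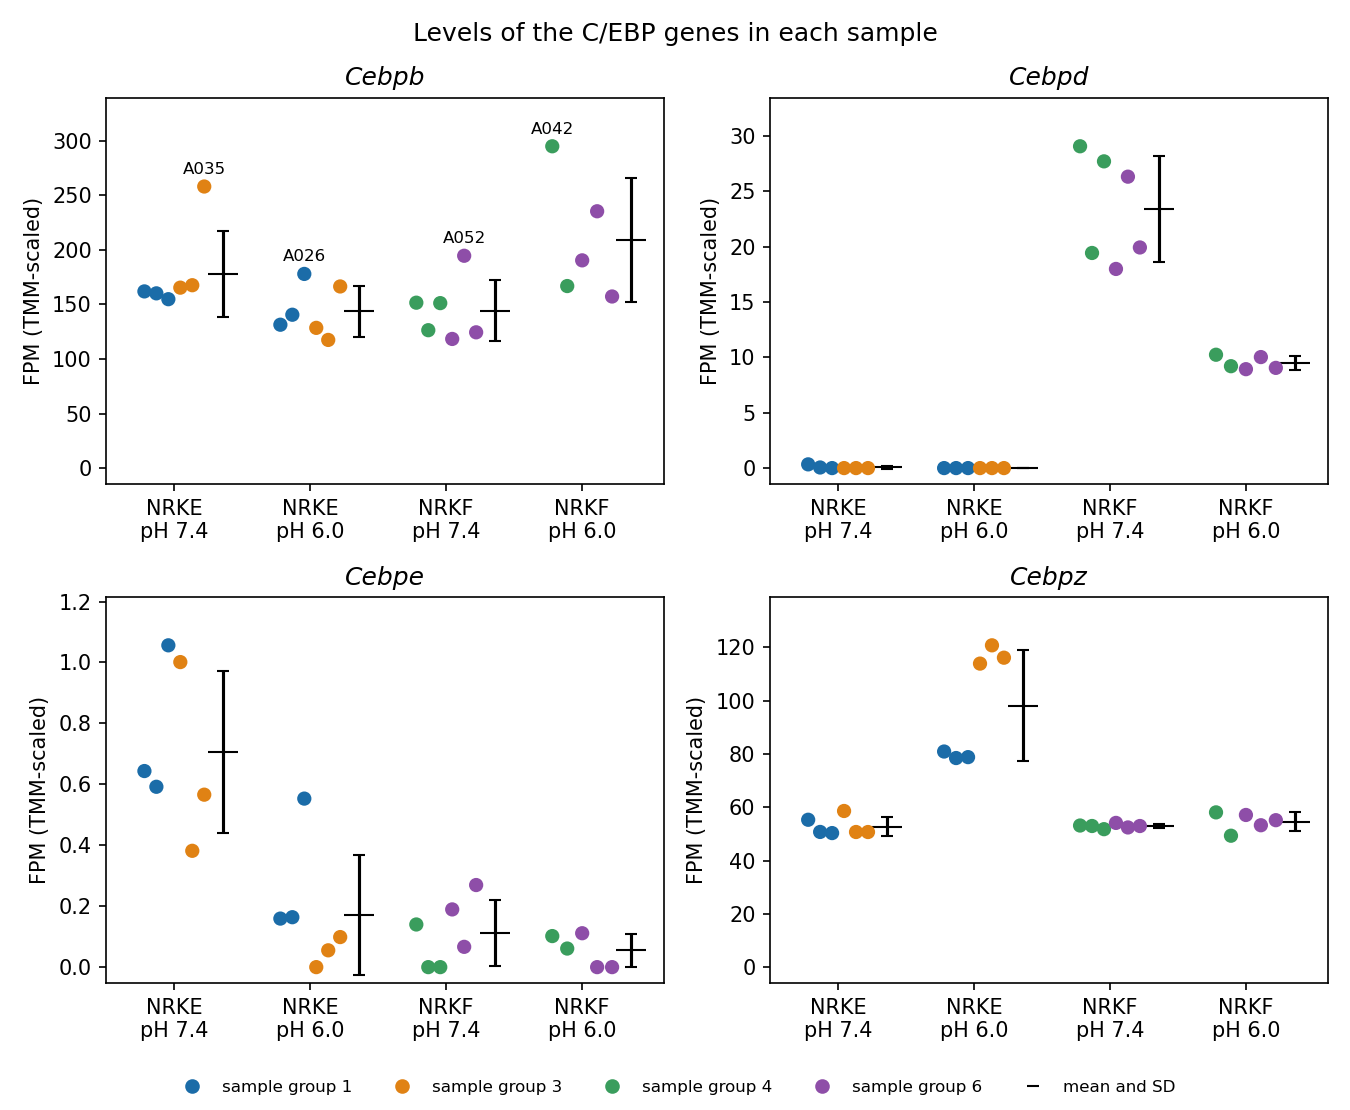
Level of the 4 C/EBP genes in FPM (vertical axis, from 0) in each of the 23 samples, by cell line and pH, with colours for the sample groups and bars for mean and SD. Cebpz at pH 6.0 in NRKE cells lies above every other sample and splits by sample group, Cebpd is near 0 in NRKE cells, and A035, A026, A052 and A042 are the samples with the highest Cebpb level of their conditions.

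Cebpb encodes C/EBPβ. In NRKE cells at pH 7.4 its level was 162 FPM in A021, 160.2 in A022, 155 in A023, 165 in A033, 168 in A034 and 258 in A035. At pH 6.0 it was 131 FPM in A024, 141 in A025, 178 in A026, 129 in A036, 117 in A037 and 167 in A038. Apart from A035 the samples at pH 7.4 lay within a narrow band, the samples at pH 6.0 spread to either side of it, and the groups overlapped. The mean was 178 ± 39.5 FPM (SD, n = 6) at pH 7.4 and 144 ± 23.6 FPM (SD, n = 6) at pH 6.0. The log2 fold change was -0.31 (SE 0.16, edgeR adjusted p = 0.0961), and the exact two-sided permutation test over samples gave p = 0.0584 (0.0935 after adjustment over 8 such tests), so that the difference was not beyond the spread between samples. Without A035 the log2 fold change was -0.17 (edgeR adjusted p = 0.319). Without A026 the means differed by -41.1 FPM, which passed in the exact permutation test (adjusted p = 0.0416) but not in edgeR.

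In NRKF cells Cebpb was 152 FPM in A039, 126 in A040, 151 in A041, 118 in A051, 195 in A052 and 124 in A053 at pH 7.4. At pH 6.0 it was 295 FPM in A042, 167 in A043, 190.5 in A054, 235 in A055 and 157 in A056. The 5 acidic samples reached higher than the controls, but A056 and A043 lay below A052 and the groups overlapped. The mean rose from 144 ± 28.4 FPM (SD, n = 6) to 209 ± 56.8 FPM (SD, n = 5), a log2 fold change of 0.53 (SE 0.17, edgeR adjusted p = 0.0174), with p = 0.0238 in the exact permutation test (0.0476 adjusted). In edgeR the call was lost without A042, where the log2 fold change was 0.38 (SE 0.16, adjusted p = 0.0879). In the exact permutation test it was lost in 8 of 11 cases, without A039, A040, A041, A042, A051, A053, A054 or A055, with differences from 43.1 to 69.2 FPM and adjusted p up to 0.0935.

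The change of Cebpb differed between the lines by -0.84 on the log2 scale (NRKE minus NRKF, SE 0.23, edgeR adjusted p = 0.00491). With each of the 23 samples left out in turn this difference stayed between -0.94 and -0.68, with adjusted p up to 0.0131. The order of the mean levels was NRKF at pH 6.0, NRKE at pH 7.4, NRKF at pH 7.4 and NRKE at pH 6.0, and each neighbouring pair overlapped. At pH 7.4 the lines differed by 0.30 on the log2 scale (NRKE over NRKF, edgeR adjusted p = 0.0953), which did not pass except without A052 (0.40, adjusted p = 0.0272), and at pH 6.0 by -0.54 (adjusted p = 0.00514).

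**Figure D2:**
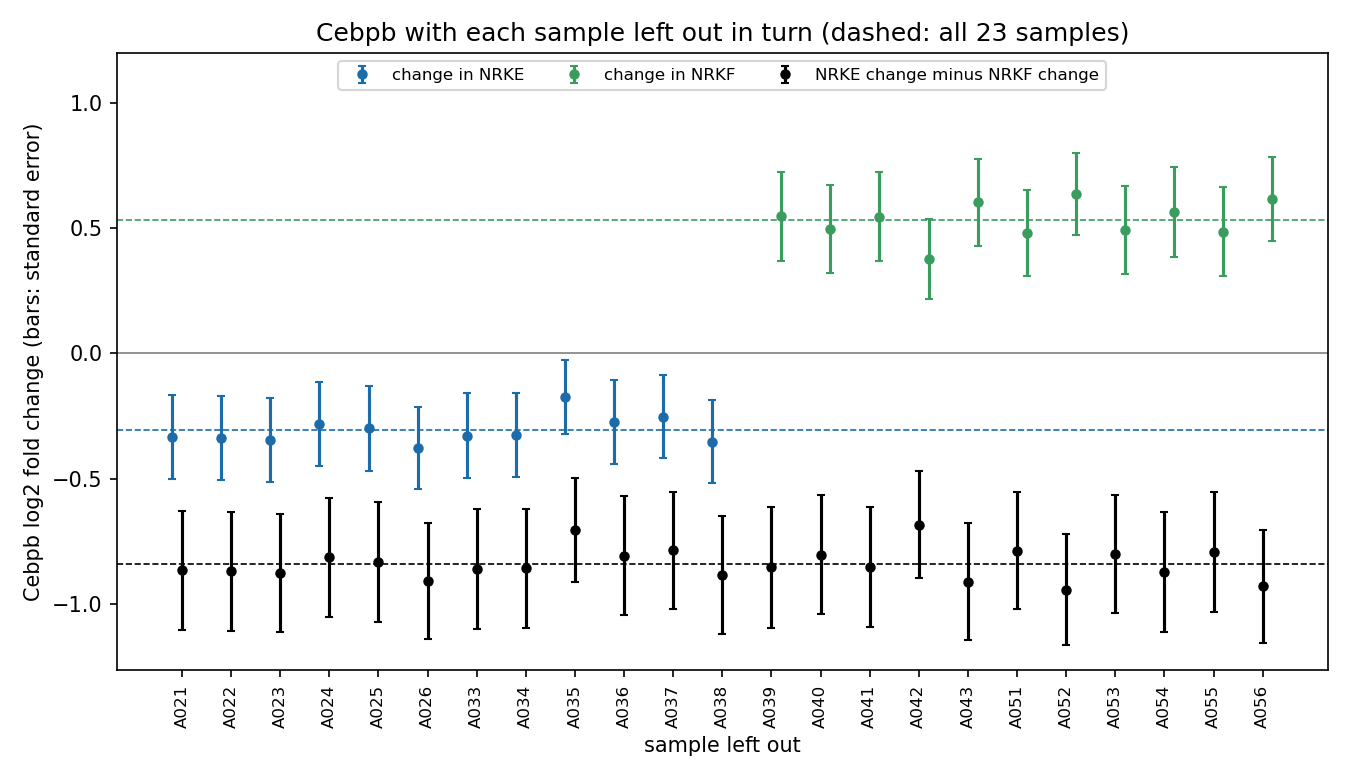
Log2 fold change of Cebpb at pH 6.0 against pH 7.4 (vertical axis, bars for the standard error) with each sample (horizontal axis) left out in turn, for NRKE, for NRKF and for the difference between both. The difference stays between -0.94 and -0.68, the change in NRKF cells drops to 0.38 without A042, and that in NRKE cells moves to -0.17 without A035.

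The 4 samples with the highest Cebpb level of their conditions were also read over all genes. In each condition the same sample also had the largest share of genes lying apart above the others, 8.89% for A035, 0.699% for A026, 1.89% for A052 and 2.25% for A042, and the lowest TMM scaling factor, at 0.980, 1.02, 0.877 and 0.804. Below the first sample these shares did not always follow the Cebpb level. A051, at 1.78%, was close to A052 but had the lowest Cebpb level of its condition, 118 FPM. A021, at 1.44%, had rank 4 for Cebpb in its condition. The share of A026 was close to that of A038, at 0.553%. The Cebpb level from the unscaled library size was 253 FPM in A035 and 237 FPM in A042, again the highest of their conditions. Without these 4 samples, a choice made after seeing the data, the log2 fold change of Cebpb was -0.13 in NRKE cells (edgeR adjusted p = 0.283), 0.47 in NRKF cells (adjusted p = 0.00346) and differed by -0.60 between them (adjusted p = 0.00335). Leaving out the highest Cebpb level of each condition narrows the spread, with an SE in NRKF cells of 0.11 instead of 0.17. These p-values are therefore too small to be set beside those over all samples. The part of these features of the samples in the Cebpb level was not tested.

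**Figure D3:**
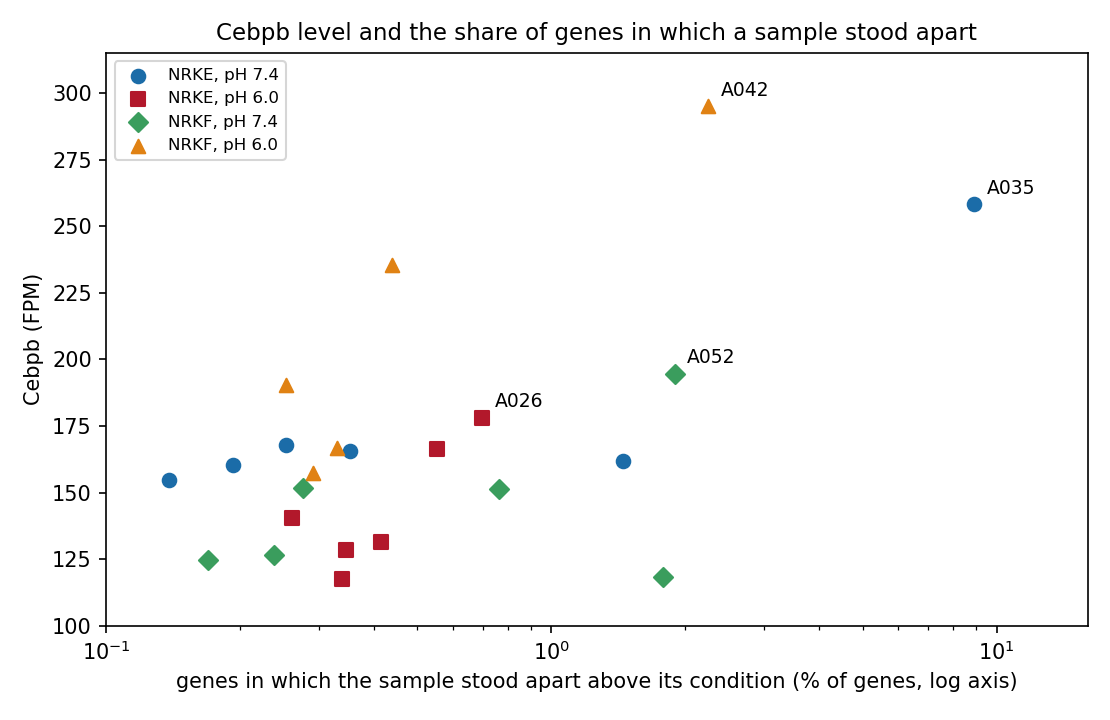
Cebpb level in FPM (vertical axis) against the percentage of 13015 genes in which a sample lay apart above the other samples of its condition (horizontal log axis), for each of the 23 samples. The labelled samples A035, A042, A052 and A026 are the highest of their conditions on both axes.

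In A035, Cebpb lay apart from the other samples of its condition by 0.876 of the range, at 258 FPM against at most 168 FPM. Over all genes, 8.89% lay apart above and 3.18% apart below in A035. Of the genes on the lists described below, Fbl, Rrp1, Pes1, Wdr12 and Rrp12, all of them nucleolar, lay apart above in A035, between 1.29 and 1.70 times the mean of the other 5 samples. They stand on a list of 18 genes, the others of which did not lie apart above. Krt8, a keratin, Phgdh, which opens serine synthesis, and Agpat2, an enzyme of lipid synthesis, were also apart above, at 1.39, 1.38 and 1.35 times. Below the others were Il1r1, the interleukin-1 receptor, at 0.486 times, the ribosome assembly factor Noc3l at 0.706 times, the kinase Jak1 at 0.707 times and the amino acid carrier Slc38a2 at 0.834 times. Cebpz, at 50.7 FPM in A035, and Cebpe, at 0.566 FPM, lay within the range of the other samples, and Cebpd was at 0.

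Cebpd encodes C/EBPδ. In NRKF cells at pH 7.4 it was 29.1 FPM in A039, 19.4 in A040, 27.7 in A041, 18.0 in A051, 26.3 in A052 and 19.9 in A053. At pH 6.0 it was 10.2 FPM in A042, 9.21 in A043, 8.94 in A054, 10.0 in A055 and 9.05 in A056. All acidic samples lay below all controls and close to each other, and A042, the highest for Cebpb, did not stand apart. The mean fell from 23.4 ± 4.83 FPM (SD, n = 6) to 9.50 ± 0.599 FPM (SD, n = 5), a log2 fold change of -1.30 (SE 0.28, edgeR adjusted p = 0.00149), and the exact permutation test gave p = 0.00216, the smallest it can give here (0.00866 adjusted). With each sample left out the log2 fold change stayed between -1.37 and -1.23.

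In NRKE cells Cebpd was near its limit of detection. At pH 6.0 all 6 samples had 0 counts, and at pH 7.4 there were 12 counts in A021, 1 count in A022 and 0 in the other 4 samples. No fold change between the pH values is given, since the call in edgeR (adjusted p = 0.0150) rested on A021 and was lost without it (adjusted p = 0.271). At pH 6.0 NRKF cells had a level at least 64.7-fold higher than NRKE cells, computed against a floor of 3 counts per library, and at pH 7.4 the means were 23.4 and 0.0649 FPM. The 10 fibroblast markers were read beside these counts. Of the mean in NRKF cells at pH 7.4, A021 had 1.43% for Cebpd and between 1.18% and 2.53% for Pdgfra, Col1a1, Col1a2, Lum, Vcam1 and Twist1, the highest share of the 12 NRKE samples for each. The other NRKE samples at pH 7.4 held several of these transcripts at lower shares, with 0.72% for Pdgfra in A022, 1.41% for Col1a1 in A023, which had 0 Cebpd counts, and 1.18% for Twist1 in A033. The remaining markers did not set A021 apart, with 45.7% for Pdgfrb, 386% for Col3a1 and 0 for Dcn and Thy1. Over all 10 markers the summed level was 4903 to 8102 FPM in NRKE cells at pH 7.4, lowest in A021, and 1830 to 3110 FPM at pH 6.0, against 10583 to 13639 FPM in NRKF cells at pH 7.4 and 7416 to 9889 FPM at pH 6.0. Nearly all of the sum in NRKE cells was Col3a1, at 4678 to 8037 FPM at pH 7.4, a marker that was higher there than in NRKF cells. The number of markers at 0 in all NRKE samples was 2 at pH 7.4 and 3 at pH 6.0. The part of these transcripts in the Cebpd counts of NRKE cells was not tested.

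Cebpe encodes C/EBPε and was scarce throughout. In NRKE cells at pH 7.4 it was 0.644, 0.592, 1.06, 1.00, 0.382 and 0.566 FPM in A021, A022, A023, A033, A034 and A035, from 7 to 28 counts. At pH 6.0 it was 0.159, 0.164, 0.553, 0, 0.0552 and 0.0986 FPM in A024, A025, A026, A036, A037 and A038, from 0 to 19 counts. A026, the highest of the acidic samples, lay within the range of the controls, and the other 5 lay below all controls. The mean fell from 0.707 ± 0.265 FPM (SD, n = 6) to 0.172 ± 0.197 FPM (SD, n = 6), a log2 fold change of -1.83 (SE 0.55, edgeR adjusted p = 0.00618), with p = 0.00433 in the exact permutation test (0.0115 adjusted). In sample group 1 alone it was -1.13 (adjusted p = 0.0719). Cebpe passed the filter for genes tested chiefly through the NRKE samples at pH 7.4, where it was highest. The tests of its fall are thus not independent of that filter.

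In NRKF cells the libraries held between 0 and 5 Cebpe counts at pH 7.4 and no more than 3 at pH 6.0, and a change was not detectable at this depth (edgeR adjusted p = 0.465). At pH 7.4 NRKE cells exceeded NRKF cells by 2.60 on the log2 scale (SE 0.60, adjusted p = 0.000493), a test with the same limit from the filter. Markers of the myeloid cells in which C/EBPε is known were checked beside it. Mpo and Elane, granule proteins, averaged at most 0.0492 FPM in any condition, whereas Cd14, a receptor for lipopolysaccharide on the same list, averaged 81.8 to 109.6 FPM in every condition. Of the 12 myeloid genes 4 were abundant enough to be tested. Csf1r and Lyz2 passed as higher in NRKE cells at pH 6.0, and 0 of the 4 passed in NRKF cells (edgeR, both named after their values were seen). Of all genes tested, 24.7% passed as higher and 36.6% as lower in NRKE cells, and 28.9% passed in either direction in NRKF cells.

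Cebpz encodes a nucleolar CCAAT-box factor. In NRKE cells at pH 7.4 it was 55.3 FPM in A021, 50.7 in A022, 50.3 in A023, 58.6 in A033, 50.7 in A034 and 50.7 in A035. At pH 6.0 it was 80.9 FPM in A024, 78.5 in A025, 78.8 in A026, 114 in A036, 121 in A037 and 116 in A038. All acidic samples lay above all controls, and those of sample group 3 lay above those of sample group 1. The mean rose from 52.7 ± 3.44 FPM (SD, n = 6) to 98.2 ± 20.7 FPM (SD, n = 6), a log2 fold change of 0.90 (SE 0.099, edgeR adjusted p = 4.22e-08), and the exact permutation test gave p = 0.00216, the smallest it can give here (0.00866 adjusted).

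In NRKF cells Cebpz was 53.2, 52.98, 51.8, 54.1, 52.4 and 52.97 FPM at pH 7.4 in A039, A040, A041, A051, A052 and A053. At pH 6.0 it was 58.1, 49.3, 57.1, 53.3 and 55.2 FPM in A042, A043, A054, A055 and A056. The acidic samples lay on both sides of the controls, with means of 52.9 ± 0.783 FPM (SD, n = 6) and 54.6 ± 3.48 FPM (SD, n = 5), and the log2 fold change of 0.05 (SE 0.10, edgeR adjusted p = 0.789) did not pass. Without A043 the means differed by 3.00 FPM and passed in the exact permutation test (adjusted p = 0.0190), though not in edgeR. The change differed between the lines by 0.85 (SE 0.14, adjusted p = 4.67e-05). Of the 4 condition means, NRKE at pH 6.0 was the highest, while the other 3 lay from 52.7 to 54.6 FPM with overlapping samples. The lines differed by 0.85 at pH 6.0 (adjusted p = 9.92e-08).

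Between the lines, 2 of the 4 genes passed at pH 7.4 (Cebpd and Cebpe), where 68.8% of all genes did (35% higher and 33.9% lower in NRKE), and 3 passed at pH 6.0 (Cebpb, Cebpd and Cebpz), where 75.5% did (36.6% higher and 38.9% lower). Cebpe, too, passed at pH 6.0 without A036, A037 or A054 (1.90 to 2.24 on the log2 scale, edgeR adjusted p from 0.0293 to 0.0493). Cebpd and Cebpe passed the filter for genes tested chiefly through the line in which they were higher. The sample groups within a line were compared by the difference of their acid responses. In NRKE cells Cebpz rose by 0.69 on the log2 scale in sample group 1 (SE 0.077) and by 1.21 in sample group 3 (SE 0.10), a difference of 0.53 (SE 0.11, edgeR adjusted p = 0.00344), and it was the only one of the 4 genes to pass, where 10.6% of all genes did (3.78% higher and 6.87% lower). At pH 7.4 the Cebpz means of both sample groups were 52.1 and 53.4 FPM. Cebpb changed by -0.0024 in sample group 1 and by -0.44 in sample group 3 (SE 0.19), and their difference of -0.44 was not past the threshold (adjusted p = 0.442). In NRKF cells 0 of the 4 genes passed in edgeR, 0 in DESeq2 and 0 in edgeR at an unadjusted p under 0.05, where 0% of all genes passed and 596 genes had an unadjusted p under 0.05. Cebpb in NRKF cells changed by 0.69 in sample group 4 (adjusted p = 0.133) and by 0.40 in sample group 6 (adjusted p = 0.257), neither past the threshold alone, and the fall of Cebpd passed in both.

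**Figure D4:**
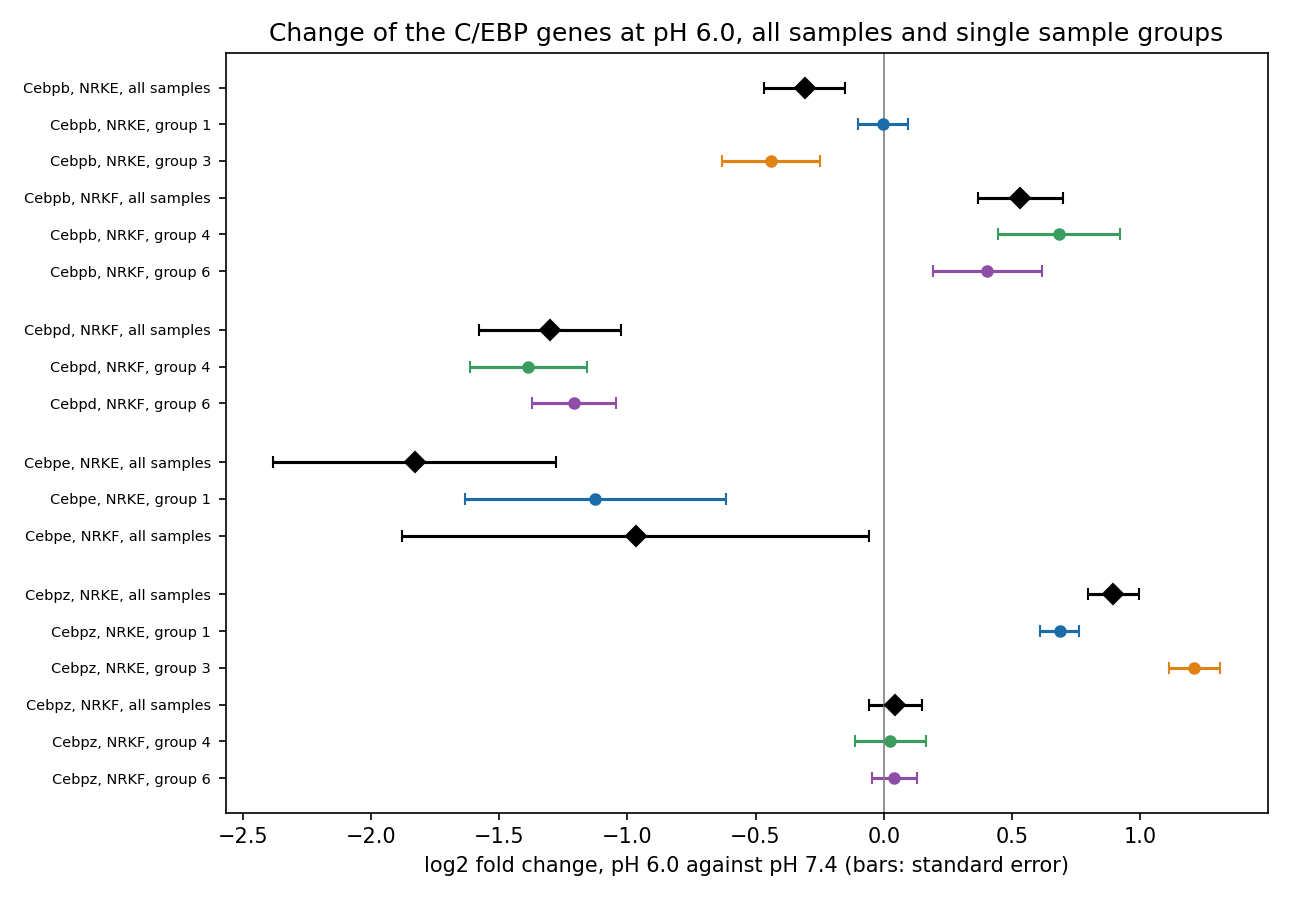
Log2 fold change of the C/EBP genes at pH 6.0 against pH 7.4 (horizontal axis, bars for the standard error), over all samples of a line (black diamonds) and in single sample groups (coloured points). Cebpz in NRKE cells is at 0.69 in sample group 1 and at 1.21 in sample group 3, Cebpd falls in both NRKF groups, and estimates are left out where the gene was too scarce.

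Cebpz overlaps Cebpzos, a gene on the opposite strand, in RefSeq. The counting options named in the study's methods include no strand setting and the default of the tool ignores strand. Reads from exon sequence that both genes share therefore cannot be assigned by strand. No option to count reads over both genes is named either, and without it the tool leaves such reads uncounted. Cebpzos had 2 to 49 counts per sample. Its log2 fold change was 0.93 in NRKE cells (SE 0.36, edgeR adjusted p = 0.0294) and 0.12 in NRKF cells (adjusted p = 0.877). Ndufaf7, a complex I assembly factor that lies head to head with Cebpz, had log2 fold changes of 0.21 in NRKE cells (adjusted p = 0.124) and 0.30 in NRKF cells (adjusted p = 0.0583), and neither passed.

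The genes with the most similar pattern were sought over the 23 samples among 10847 genes, by the root mean square difference of log2 levels centred per gene. Closest to Cebpb were Rps3, a ribosomal protein (0.138), the DNA repair enzyme Nthl1 (0.144) and Oxld1 (0.146), where the median over all genes was 0.569. Rps3 and Nthl1 were likewise highest in A035, A026, A052 and A042 of their conditions, at 2003, 1695, 1718 and 2466 FPM for Rps3, and Oxld1 in A035, A052 and A042. Closest to Cebpd were Rcan2, a calcineurin regulator (0.221), Trib2, a pseudokinase known to trigger the breakdown of C/EBPα (0.248), and the receptor Gpr37 (0.272), against a median of 2.51. In NRKE cells at pH 7.4 and 6.0, Cebpd averaged 0.0649 and 0 FPM and Trib2 0.137 and 0.0164 FPM. The likeness of Cebpd and Trib2 thus rests largely on their near absence in NRKE cells. Closest to Cebpz were the chaperone Hspa4 (0.0872), the Golgi GTPase Rab6a (0.0900) and Cop1, a ubiquitin ligase (0.0949), against a median of 0.604. The points share libraries and scaling, and these values are descriptions.

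Genes around the C/EBP factors were followed by lists. Among bZIP partners 3 of 10 genes tested were higher in NRKE cells at pH 6.0 (Atf3, Atf4 and Ddit3) and 2 lower (Jun and Atf2), and in NRKF cells 4 were higher (Atf3, Batf3, Ddit3 and Jun) and 0 lower. For this and the following lists the background is the same: 24.7% of all genes passed as higher and 36.6% as lower in NRKE cells, and 14.5% and 14.4% in NRKF cells. Their median log2 fold changes were 0.33 and 0.44, where the medians of all genes tested were -0.12 and 0.00088. Ddit3, which encodes CHOP, a dimer partner of C/EBPβ, rose from 68.6 ± 12.02 to 172 ± 42.5 FPM in NRKE cells (log2 fold change 1.33, edgeR adjusted p = 4.73e-07) and from 59.0 ± 9.87 to 104 ± 29.4 FPM in NRKF cells (0.82, adjusted p = 0.00118). Atf4, the main factor of the integrated stress response, rose by 0.74 in NRKE cells (adjusted p = 4.32e-06), and its change of 0.30 in NRKF cells did not pass (adjusted p = 0.0594). Atf3, a repressor induced by stress, rose by 2.06 and 3.40 (adjusted p = 1.52e-09 and 8.43e-12). Jun fell by 1.00 in NRKE cells and rose by 0.59 in NRKF cells (adjusted p = 7.56e-11 and 3.01e-06), and Cebpb, too, passed as higher in NRKF cells. Atf5 averaged 0.274 FPM and did not pass in either line. Batf3 was at 0.355 FPM in NRKF cells at pH 7.4 and at 2.20 FPM at pH 6.0. It passed the filter for genes tested through the latter samples, so that its call is not independent of that filter.

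Among targets of C/EBP-ATF elements 9 of 16 genes were higher and 2 lower in NRKE cells, and again 9 were higher and 2 lower in NRKF cells, beside 24.7% and 36.6% of all genes in NRKE cells and 14.5% and 14.4% in NRKF cells. The medians were 0.48 and 0.39. Asns, Mthfd2, Shmt2, Vegfa, Trib3, Ddit3 and Atf3 passed as higher in both lines, named after their values were seen. Trib3, a pseudokinase that binds ATF4, rose by 2.58 and 1.72 (edgeR adjusted p = 1.73e-10 and 1.14e-06). Psat1, an enzyme of serine synthesis, fell by 0.79 in NRKE cells and rose by 0.84 in NRKF cells (adjusted p = 1.06e-06 and 4.92e-06). Herpud1, of the endoplasmic reticulum, fell by 0.49 in NRKF cells (adjusted p = 0.000194). Trib3, Ddit3 and Atf3 stand on more than 1 list.

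Of the genes that control C/EBP protein, 3 of 10 were higher and 3 lower in NRKE cells, near the 24.7% and 36.6% of all genes, and 1 was higher and 3 lower in NRKF cells, beside 14.5% and 14.4%. The medians were -0.21 and 0.02. Trib1, which with COP1 directs C/EBPα to degradation, fell by 0.86 in NRKE cells (edgeR adjusted p = 0.000216), and its change of 0.38 in NRKF cells did not pass (adjusted p = 0.123). Trib2 fell in NRKF cells from 29.3 ± 2.60 to 10.5 ± 2.11 FPM (-1.48, edgeR adjusted p = 0.00111), a call that DESeq2 did not make (-1.49, adjusted p = 0.0755), and it averaged 0.137 and 0.0164 FPM in NRKE cells, where its call was lost without A021 (adjusted p = 0.865).

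Genes around the signals that induce Cebpb and Cebpd were followed, with genes of feedback and response beside cytokines and receptors. In NRKE cells 8 of 14 were lower and 2 higher, and in NRKF cells 3 were lower and 1 higher. The shares of all genes were 36.6% and 24.7% in NRKE cells and 14.4% and 14.5% in NRKF cells. A lower gene on this list is not by itself a weaker inducing signal. The medians were -0.45 and 0.04. Socs3, the feedback inhibitor of interleukin-6 signals, fell by 1.19 in NRKE cells (edgeR adjusted p = 4.93e-10) and had a log2 fold change of 0.03 in NRKF cells (adjusted p = 0.852). Lif, a cytokine of the interleukin-6 family, rose by 1.06 in NRKE cells (adjusted p = 6.93e-08). Nr3c1, the glucocorticoid receptor, fell by 0.53 in NRKE cells (adjusted p = 0.000453). Stat3, the factor that conveys these cytokines to Cebpd, had log2 fold changes of -0.23 and 0.10 and did not pass in either line (adjusted p = 0.107 and 0.599). Il1r1 fell by 0.77 in NRKE cells and fell by 1.67 in NRKF cells (adjusted p = 0.0125 and 6.26e-05). Il6 had 2 to 7 counts per NRKF sample at pH 7.4 and 22 to 86 at pH 6.0, with means of 0.217 and 2.32 FPM. It passed the filter for genes tested through the latter samples, so that a test of its rise is not independent of that filter.

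Of the acute-phase and inflammatory genes, 10 of 15 were lower and 2 higher in NRKE cells, and 6 were lower and 4 higher in NRKF cells, where 36.6% and 24.7% of all genes and 14.4% and 14.5% passed in these directions. The medians were -1.02 and -0.62. Cp, Lcn2, C3, Csf3, Ptgs2 and Cxcl1 passed as lower in both lines, named after their values were seen. Csf3 in NRKF cells rested on 24 counts in all at pH 7.4 and 3 at pH 6.0. It passed the filter for genes tested through the NRKE samples at pH 7.4, where it had 28 to 60 counts. The tests of its fall are thus not independent of that filter. Other listed genes went the other way in NRKF cells. From pH 7.4 to pH 6.0 the mean of Il6 went from 0.217 to 2.32 FPM, and that of Hp from 2.24 to 4.81 FPM. Il6 passed the filter for genes tested through the NRKF samples at pH 6.0, so that a test of its rise is not independent of that filter. Lcn2, a lipocalin that binds bacterial siderophores, fell from 6.12 ± 1.31 to 0.782 ± 0.257 FPM in NRKE cells (-3.00, edgeR adjusted p = 6.23e-11) and from 45.9 ± 8.81 to 27.7 ± 6.16 FPM in NRKF cells (-0.72, adjusted p = 0.00289). Complement C3 fell by 1.87 in NRKE cells and fell by 2.68 in NRKF cells (adjusted p = 1.17e-10 and 2.66e-11). Lbp, which binds lipopolysaccharide, fell by 1.09 in NRKE cells and rose by 1.47 in NRKF cells (adjusted p = 0.00191 and 0.000369). The chemokine Ccl7 rose by 1.50 in NRKE cells, at 1.14 and 3.50 FPM (adjusted p = 0.000748), against 179 and 181 FPM in NRKF cells, through which it met the limit of 5 FPM for being named. In sample group 1 alone its change was 0.59 and did not pass (adjusted p = 0.332). Ccl2 was at 1.05 and 0.0344 FPM there, against 270.3 and 201 FPM in NRKF cells.

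**Figure D5:**
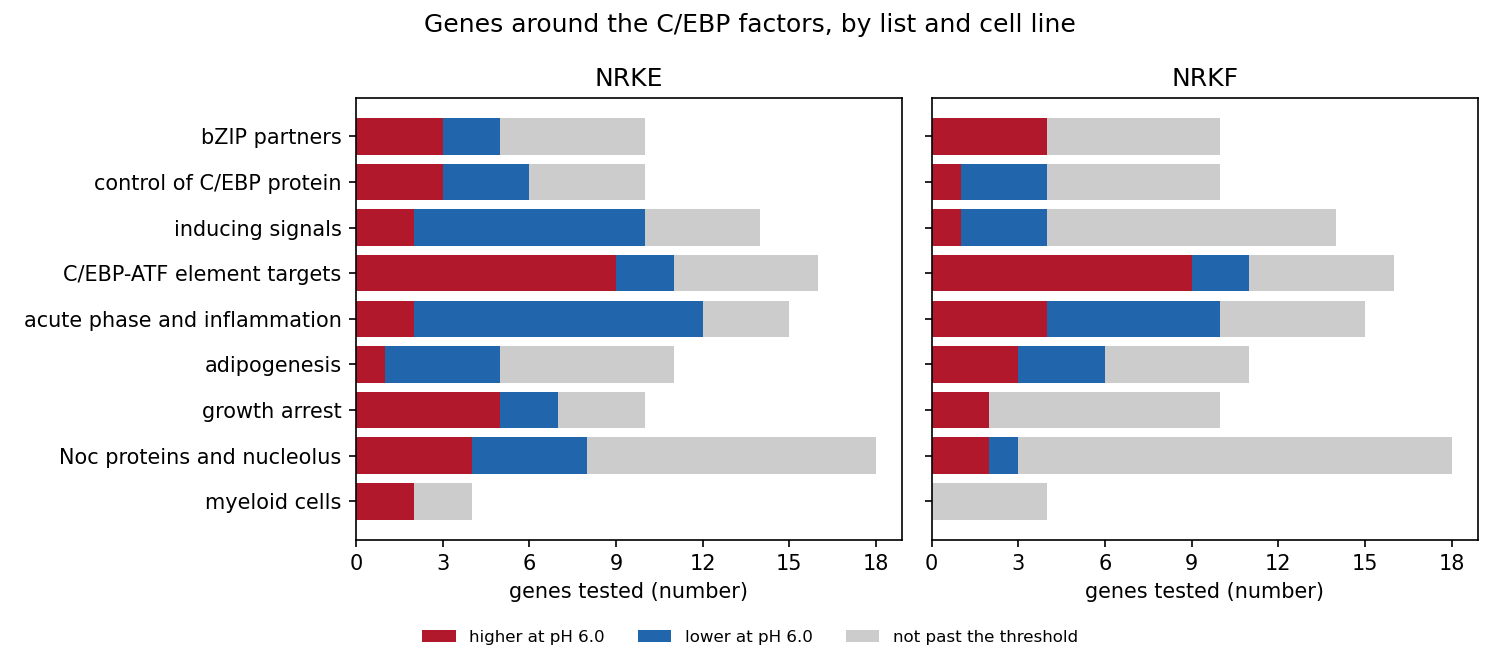
Number of genes tested on each list (horizontal axis) that passed as higher, passed as lower or did not pass at pH 6.0, in NRKE and NRKF cells. The targets of C/EBP-ATF elements show 9 of 16 higher in each line, and the acute-phase genes show 10 of 15 lower in NRKE cells and 6 lower in NRKF cells.

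Among genes of fat cell differentiation 1 of 11 was higher and 4 lower in NRKE cells, and 3 were higher and 3 lower in NRKF cells, beside 24.7% and 36.6% of all genes in NRKE and 14.5% and 14.4% in NRKF cells. The medians were -0.06 and -0.12. Fabp4, a fatty acid carrier and a classical C/EBP target, was at 0 in all NRKE samples and rose from 0.392 ± 0.130 to 3.16 ± 1.04 FPM in NRKF cells (log2 fold change 2.99, edgeR adjusted p = 6.06e-06). It passed the filter for genes tested through the NRKF samples at pH 6.0, where it was highest. The test of its rise is thus not independent of that filter. Dgat2, an enzyme of triglyceride synthesis, fell by 0.76 in NRKE cells and rose by 0.59 in NRKF cells (adjusted p = 4.29e-05 and 0.00417), the latter at 0.30 in sample group 4 alone (adjusted p = 0.457). The factor Klf5 fell by 0.86 in NRKE cells and fell by 0.61 in NRKF cells (adjusted p = 3.47e-06 and 0.00325), Klf15 fell by 0.83 in NRKF cells (adjusted p = 2.63e-07), and Srebf1, of lipid synthesis, rose by 0.42 in NRKE cells (adjusted p = 0.0144). Pparg was too scarce to be tested.

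Growth arrest is a known function of C/EBP factors. Of 10 genes of growth arrest and the cell cycle, 5 were higher and 2 lower in NRKE cells and 2 were higher and 0 lower in NRKF cells, where 24.7% and 36.6% of all genes and 14.5% and 14.4% did so. Drivers of the cell cycle such as Cdk4 and Myc stand on this list beside inhibitors, so its counts and medians have no single direction for arrest. The medians were 0.26 and 0.19. Cdkn1a, the inhibitor p21, rose from 17.4 ± 3.79 to 369.7 ± 187 FPM in NRKE cells (4.41, edgeR adjusted p = 2.14e-12), and it was 305 and 347 FPM in NRKF cells (adjusted p = 0.607). Gadd45a, a stress sensor, rose by 2.78 and 0.67 (adjusted p = 1.14e-12 and 0.00251). Myc fell by 0.93 in NRKE cells (adjusted p = 3.96e-09).

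Around Cebpz, 18 genes of Noc proteins, nucleolus and the RNA methyltransferase complex were followed, of which 4 were higher and 4 lower in NRKE cells and 2 higher and 1 lower in NRKF cells. In both lines and directions these are no larger shares than those of all genes (24.7% and 36.6%, and 14.5% and 14.4%), and the medians were 0.02 and 0.0093. Noc2l and Noc3l, relatives of Cebpz in ribosome assembly, had log2 fold changes of 0.0082 and 0.08 in NRKE cells (edgeR adjusted p = 0.943 and 0.490) and 0.06 and -0.0087 in NRKF cells (adjusted p = 0.656 and 0.963). Nop58, a core protein of nucleolar particles, rose by 0.59 in NRKE cells (adjusted p = 3.12e-05), and Mettl14, of the methyltransferase, fell by 0.63 (adjusted p = 6.24e-06). The calls of Wdr12 and Rrp12 lay near the threshold. Wdr12 rose by 0.30 and 0.34 (adjusted p = 0.0346 and 0.0451), calls that were lost in 6 of 12 cases with a sample left out in NRKE cells (A021, A023, A026, A033, A034 or A038, from 0.26 to 0.28) and in 7 of 11 in NRKF cells (A039, A040, A042, A051, A053, A054 or A055, from 0.22 to 0.36). Rrp12 fell by 0.42 in NRKE cells and fell by 0.49 in NRKF cells (adjusted p = 0.0311 and 0.0311). In NRKE cells its call was lost without A035 (-0.35, adjusted p = 0.0779), A024, A025 or A026 (from -0.39 to -0.31), with RLE scaling (-0.38, adjusted p = 0.0502), with the line fitted alone (-0.33, adjusted p = 0.146) and in sample group 3 alone (-0.10, adjusted p = 0.635). In NRKF cells it was lost without A041, A043, A052, A054 or A056 (from -0.47 to -0.40).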

How the data were processed

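Poly(A) RNA of 23 cell culture samples was sequenced. The deposited table holds raw counts per gene, which the authors made with HISAT2 2.1.0 and featureCounts, multi-mapping reads included, no strand option named and without normalization. The genome build is rn6 in the submitters' processing notes and rn7 in the study's methods, so no gene coordinates are given for the counts. The promoter coordinates are those of RefSeq on GRCr8. Of 36 columns of samples, 23 were matched to labels by name and 13 were not used.

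After filterByExpr (count limit 10, total limit 15), edgeR 4.0.16 in R 4.3.3 fitted all samples in 1 quasi-likelihood model with 4 conditions, or 8 with sample group, after TMM scaling. The threshold for calls was 0.05 after Benjamini-Hochberg adjustment over the genes tested. The SE is the log2 fold change over the square root of F. Single levels were tested by exact two-sided permutation over samples (scipy 1.17.1), 8 tests adjusted together. Bounds use 3 counts as the floor and cover counting error only. The edgeR fit with 4 conditions was tested on simulated counts of independent samples, without an effect of sample group or an outlying sample. Alternatives included DESeq2 1.42.0, other scalings, filters, thinning, single lines or sample groups, and each sample left out. Figures were drawn with matplotlib 3.10.9.

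The members and lists were chosen with earlier results of these data known. Beside the members, the text names, per list and line, the called genes that rose and fell most (mean of at least 5 FPM), and 12 fixed genes, of which Ddit3, Atf4 and Nr3c1 are examples. For each member above 1 FPM it names the 3 genes of most similar pattern.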

Additional observations from a re-analysis of the deposited data

Results flagged for a closer look

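Samples were compared within each condition by the gap of the highest or lowest sample to the next, divided by the range of the condition, and chance alone marks about 1 in 20 groups. Cebpb stood apart in A035 (0.876, at 258 FPM), Cebpd in A021 (0.840, at 12 counts) and Cebpe in A026 (0.704, at 0.553 FPM). In A035 the ribosome assembly genes Rrp12 (0.784) and Wdr12 (0.665) lay high, and Noc3l (0.801) and Il1r1 (0.628) lay low. In A021 Trib2 (0.926) and Ccl7 (0.626) lay high, as did Klf5 (0.690) in A033 and Trib2 in A038, where a ratio of 1 rests on the only NRKE sample at pH 6.0 with any Trib2 read. Among NRKF samples at pH 6.0, Atf4 (0.715) and Fabp4 (0.753) lay high in A042, and Noc3l (0.729) lay high in A043.

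The acid response differed between the lines in edgeR for Cebpb by -0.84 and for Cebpz by 0.85 on the log2 scale (NRKE minus NRKF), and for Cebpz between sample groups 3 and 1 by 0.53. Among the dimer partners and their targets the differences were -1.59 for Jun, -1.34 for Atf3, 0.44 for Atf4, 0.86 for Trib3, -1.63 for Psat1, 0.63 for Herpud1 and -1.24 for Trib1. Among genes around the inducing signals and inflammatory genes they were -1.22 for Socs3, 1.36 for Lif, -4.59 for Ccl2, 1.49 for Ccl7, 0.80 for C3, -2.56 for Lbp and -2.28 for Lcn2, with the value for Ccl2 resting on levels near 0 in NRKE cells. Among genes of fat cells, growth arrest and the nucleolus they were 0.85 for Klf15, -1.35 for Dgat2, -1.14 for Myc, 4.23 for Cdkn1a, 2.11 for Gadd45a, -0.41 for Mettl14 and 0.66 for Nop58.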

How the results depend on the processing

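No paired analysis was possible because the replicate codes are not shared between the groups. The number of C/EBP genes past the threshold in NRKE cells dropped to 1 (Cebpz) with at least 10 counts in every sample, with the line fitted alone and in either sample group alone, and in NRKF cells to 1 with at least 10 counts (Cebpb), in either sample group alone and without A042 (Cebpd). Where 10 counts were required in every sample, Cebpd and Cebpe were not tested. Between the lines at pH 7.4 it was 0 with that filter and 1 with libraries thinned to the smallest. The difference of Cebpb in NRKE cells was -37.2 FPM from the unscaled library size and then passed (exact permutation test, adjusted p = 0.0312). With each sample left out it ranged from -41.1 to -18.3 FPM in NRKE cells, where it passed without A026 (adjusted p = 0.0416), and from 43.1 to 77.5 FPM in NRKF cells, where it lost the threshold in 8 of 11 cases, and that of Cebpz in NRKF cells from 0.807 to 3.00 FPM, where it passed without A043 (adjusted p = 0.0190). Members called in NRKF cells ranged from 1 to 2. Differences near 0 turned sign. For Cebpz between the lines at pH 7.4 the log2 value was 0.016 with upper quartile scaling and -0.035 to 0.011 with samples left out, and between sample groups 6 and 4 it was -0.040 after thinning and -0.087 to 0.15 with samples left out. For Cebpb between sample groups 6 and 4 it was 0.45 without A026, A035, A042 and A052 and -0.63 to 0.19 with single samples left out. In sample group 4 alone the calls of Jun, Ddit3, Herpud1, Gadd45a, Klf5, Dgat2, Rrp12 and Wdr12 in NRKF cells were lost, and that of Klf5 and Wdr12 also in sample group 6. DESeq2 did not call Trib2 in NRKF cells (-1.49, adjusted p = 0.0755). Causes were not tested. Cebpe and, in NRKE cells, Cebpd were limited by depth.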
